A study of Mus musculus with 8 samples.

Results

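The genes described here encode the collagens, the laminins and 7 other proteins of the extracellular matrix in the mouse. They were chosen by name from the protein-coding genes of GENCODE M1 (mm9): symbols made of Col, a number, the letter a and a number, symbols made of Lama, Lamb or Lamc and a digit, and Fn1, Fbn1, Sparc, Postn, Dcn, Lum and Tnc. The rule gave 61 of 22367 genes, namely 43 collagen genes, 11 laminin genes and 7 genes for glycoproteins and proteoglycans. The study mapped the histone variant H3.3 by ChIP-seq of an HA epitope tag in mouse embryonic stem cells (mESCs) with and without the chaperone HIRA. Its comparisons were WT against Hira-null cells at day 0 and at day 15 of differentiation toward cardiomyocytes. WT cells were the W9.5 line and Hira-null cells were Clone104, a single clone, and the H3.3 of both carried the HA tag. Day 0 cells were undifferentiated, and day 15 cultures had been grown from hanging-drop embryoid bodies and held mixed cell types with beating foci. Each of the 4 conditions had 1 ChIP library with 1 input library, so no difference between conditions has a replicate check and no p-value is given.

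Collagens are trimers that form the fibrils of connective tissue (types I, III and V) or the network of basement membranes (type IV), the sheets on which epithelial, endothelial and muscle cells rest. Laminins are heterotrimers of 1 alpha, 1 beta and 1 gamma chain that assemble the basement membrane together with type IV collagen. In the heart the fibrillar matrix is made mostly by fibroblasts, and the basement membrane surrounds each cardiomyocyte. H3.3 replaces canonical H3 outside of S phase. HIRA, with its partners, deposits it at active genes, and ATRX with DAXX deposits it at heterochromatin.

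The sequences below are the central 300 bases of peaks on which the results turn, on mm9 (NCBIM37). They show the strongest day 15 peak of each kind (WT without a Hira-null peak, Hira-null without a WT peak, WT with a Hira-null peak), the strongest Hira-null peak at day 0, and the strongest WT day 15 peaks of Col4a1 and Sparc. Each is written 5′ to 3′ on the strand of the named gene, and capitals mark a match, on either strand, to the GATA motif AGATAA. The first is the WT day 15 peak at chr12:32017832-32018131 (plus strand), which lies in Dld, the neighbour of Lamb1. The second is the Hira-null day 15 peak past the end of Col3a1 at chr1:45407909-45408208 (plus strand), outside the body of any protein-coding gene. The third is the WT day 15 peak at chr11:51401132-51401431 (plus strand), past the end of Col23a1 and inside Agxt2l2. The fourth is the Hira-null day 0 peak in an intron of Col23a1 at chr11:51253316-51253615 (plus strand). The last are WT day 15 peaks in introns of Col4a1 at chr8:11259722-11260021 (minus strand) and of Sparc at chr11:55211445-55211744 (minus strand).
Lamb1 WT day 15: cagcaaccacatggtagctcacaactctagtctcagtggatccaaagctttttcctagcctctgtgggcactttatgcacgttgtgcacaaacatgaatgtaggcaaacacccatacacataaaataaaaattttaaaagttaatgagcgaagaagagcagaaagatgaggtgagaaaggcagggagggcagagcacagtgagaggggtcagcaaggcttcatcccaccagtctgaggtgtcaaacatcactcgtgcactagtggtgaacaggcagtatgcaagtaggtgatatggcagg
Col3a1 Hira-null day 15: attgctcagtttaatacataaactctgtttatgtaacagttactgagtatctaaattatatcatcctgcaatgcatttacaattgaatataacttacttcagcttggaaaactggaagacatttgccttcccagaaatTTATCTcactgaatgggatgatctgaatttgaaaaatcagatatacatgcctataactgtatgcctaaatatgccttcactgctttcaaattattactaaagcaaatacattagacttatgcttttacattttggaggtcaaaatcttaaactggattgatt
Col23a1 WT day 15: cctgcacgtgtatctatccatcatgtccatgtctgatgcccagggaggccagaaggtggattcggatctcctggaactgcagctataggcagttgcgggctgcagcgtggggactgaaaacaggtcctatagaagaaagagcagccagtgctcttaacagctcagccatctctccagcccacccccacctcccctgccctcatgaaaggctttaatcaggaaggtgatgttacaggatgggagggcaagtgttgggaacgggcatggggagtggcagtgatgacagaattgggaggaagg
Col23a1 Hira-null day 0: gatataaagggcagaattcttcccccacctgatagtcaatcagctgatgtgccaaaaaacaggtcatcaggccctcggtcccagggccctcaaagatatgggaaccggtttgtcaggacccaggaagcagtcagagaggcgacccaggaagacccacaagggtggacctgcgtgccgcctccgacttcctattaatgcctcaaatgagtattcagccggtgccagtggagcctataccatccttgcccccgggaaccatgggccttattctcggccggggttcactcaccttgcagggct
Col4a1 WT day 15: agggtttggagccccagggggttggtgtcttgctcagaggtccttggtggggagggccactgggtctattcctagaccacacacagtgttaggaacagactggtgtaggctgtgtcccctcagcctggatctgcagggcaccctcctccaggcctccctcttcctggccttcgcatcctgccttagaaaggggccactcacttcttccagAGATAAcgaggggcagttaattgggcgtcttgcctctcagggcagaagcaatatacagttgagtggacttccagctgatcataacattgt
Sparc WT day 15: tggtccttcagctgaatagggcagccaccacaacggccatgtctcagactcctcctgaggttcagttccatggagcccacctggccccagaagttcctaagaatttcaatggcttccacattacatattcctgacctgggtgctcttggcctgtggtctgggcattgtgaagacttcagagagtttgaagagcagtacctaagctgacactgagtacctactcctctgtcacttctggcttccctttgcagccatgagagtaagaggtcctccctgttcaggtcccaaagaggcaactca

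The peak lists held 22730 peaks in WT and 17706 in Hira-null cells at day 0, and 27272 in WT and 7332 in Hira-null cells at day 15. Read depth is unknown, and the part that the lengths of the lists play in the results was not tested. A gene counted as having H3.3 when a peak lay between 10 kb before its transcription start site (TSS) and 3 kb past its end. The score of a peak is −10 log10 of its p-value as MACS gave it, and the lists began at a score of 50. Peaks at marker genes were counted beside the labels. Peaks are not expression, so these counts check no cell type. All 7 genes of a pluripotency list had WT peaks at day 0 (62 in all) and 2 of 7 had them at day 15 (2 in all), while Hira-null peaks were found at 4 of 7 and then 1 of 7. Of 7 cardiomyocyte genes, 2 had WT peaks and 1 had Hira-null peaks at day 15, and Nkx2-5, Myh6, Myh7, Tnnt2 and Actc1 had none in any list. Over all genes the shares with a peak were 35.4% in WT and 20.3% in Hira-null cells at day 0, and 39.4% and 15.2% at day 15.

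At day 15 the 2 genotypes differed in the groups of matrix genes that held the most H3.3 peaks. In WT cells the peaks lay mainly over some genes of the basement membrane. Of 128 peaks, 53 lay over the adjacent Col4a1 and Col4a2 and 33 in the windows of the laminin beta and gamma chain genes. In Hira-null cells these groups held 1 peak and 3 peaks. The class with the most Hira-null peaks was the fibrillar collagens, with 19 peaks against 3 in WT cells, all over the fibril-forming types I, III and V. At day 0 the fibril-forming genes of these types had no peak in either genotype. Other basement membrane genes did not follow the WT pattern. The remaining type IV genes had no WT day 15 peak, and the laminin alpha chain genes held 7 WT and 6 Hira-null peaks. Col4a1 and Col4a2 lie on chromosome 8, where WT day 15 gene windows held 48.2 peaks per Mb. The autosomes other than 8 and 11 held 14.6.

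**Figure D1:**
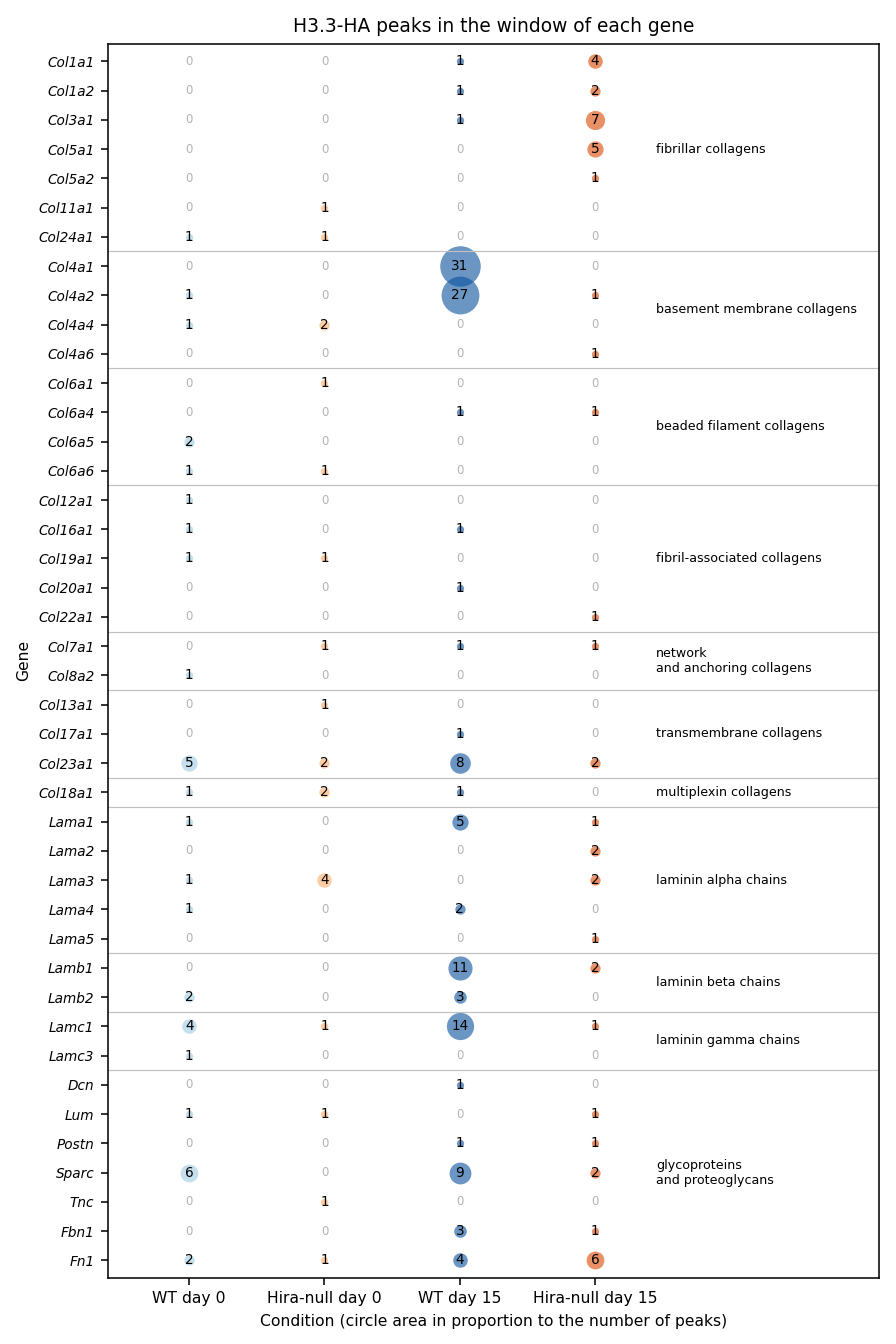
Peaks within the window of each of 42 matrix genes that had a peak in any list (rows, ordered by class), in the 4 lists (columns), with the number of peaks printed in each circle and the area of the circle in proportion to it. The 31 and 27 WT day 15 peaks of Col4a1 and Col4a2 make the largest circles, and the largest of the Hira-null day 15 column belong to Col3a1, Fn1, Col5a1 and Col1a1 (7, 6, 5 and 4 peaks).

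Among the 61 genes, 21 (34.4%, exact 95% interval 22.7 to 47.7) had a WT peak at day 0, against 35.4% of all protein-coding genes, and 15 (24.6%, 14.5 to 37.3) had a Hira-null peak, against 20.3%. At day 15, 23 (37.7%, 25.6 to 51.0) had a WT peak, against 39.4% of all genes, and 22 (36.1%, 24.2 to 49.4) had a Hira-null peak, against 15.2%. The intervals are Clopper-Pearson intervals and cover counting error only. The share thus stood near that of all genes in 3 lists and above it in the Hira-null day 15 list. Matrix genes are long, with a median length of 105 kb (7.11 to 636) against 15.4 kb for all genes, and a long window meets more peaks. Among genes of 50 to 200 kb the Hira-null day 15 share was 28.6% (8 of 28 matrix genes, 13.2 to 48.7) against 21.1% of 3887 genes, so the interval held the background value. That range leaves out Col1a1, Col1a2, Col3a1 and Sparc (16.8, 36.7, 38.2 and 25.6 kb), which had Hira-null day 15 peaks. It also leaves out Lama2 and Lama3 (636 and 249 kb), which had them too. Shorter and longer genes were not compared by length. In the same length range the WT share was 46.4% (13 of 28) against 55.7% at day 0 and 39.3% (11 of 28) against 58.0% at day 15, and the Hira-null share at day 0 was 28.6% (8 of 28) against 35.2%.

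Per megabase of window, which takes length into account only in part, matrix genes held 4.68 WT and 2.66 Hira-null peaks at day 0, against 12.3 and 5.45 in all gene windows. At day 15 they held 16.2 WT peaks against 18.9 and 5.82 Hira-null peaks against 3.66. The ratio to all gene windows was therefore 0.382 (0.269 to 0.526) in WT and 0.488 (0.302 to 0.745) in Hira-null cells at day 0, and 0.860 (0.718 to 1.02) and 1.59 (1.17 to 2.12) at day 15. The Hira-null day 15 ratio alone was above 1. Without chromosomes 8 and 11 it was 1.4, with an interval that reached below 1 (0.988 to 1.93). Of the 46 Hira-null day 15 peaks, 19 lay over the 6 genes of collagen types I, III and V. The windows of these genes make up 0.497 of the 7.90 Mb. They held 38.2 Hira-null day 15 peaks per Mb, against 5.82 over all matrix genes. The ratio was not computed without them, so a value above 1 is not shown for the remaining matrix genes. All these intervals treat the peaks of 1 gene as independent. A density also corrects for length fully only where peaks are spread evenly along a window. Over all genes, 26.6% of WT day 0 pairs of a peak and a gene lay in the 10 kb before the TSS, a smaller part of the window in long genes. The WT day 15 ratio rested on a single locus and was 0.522 without Col4a1 and Col4a2. Leaving out chromosomes 8 and 11, where WT day 15 peaks were denser than elsewhere (48.2 and 72.3 peaks per Mb of gene window, against 14.6 on the other autosomes), it was 0.568.

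Of the 61 genes, 18 (29.5%, against 42.7% of all genes) had no peak in any list. They included Col2a1 and Col11a2 of cartilage fibrils, Col9a1, Col9a2 and Col9a3 (the type IX collagen on the surface of those fibrils), Col10a1 of hypertrophic cartilage, and Col6a2 and Col6a3 of beaded filaments. Col23a1, a transmembrane collagen, Fn1 and Lamc1 had peaks in all 4 lists (4.92% of the 61 genes, against 4.24% of all genes).

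The fibril-forming collagens of types I, III and V are encoded by 6 genes. Col3a1, the type III chain of distensible tissues (chr1:45368383-45406551, plus strand), had no peak in either day 0 list, 1 WT peak and 7 Hira-null peaks at day 15. The WT peak scored 53.2 and lay in an intron 5.12 kb past the TSS, whereas the strongest Hira-null peak scored 741 and was centred 1.51 kb past the gene end. A further Hira-null peak of score 516 lay directly before it (chr1:45403520-45406380), and none of the 7 overlapped a WT peak. Col1a1, the alpha 1 chain of type I collagen (chr11:94797538-94814356, plus strand), had 0 peaks in both day 0 lists, 1 WT peak and 4 Hira-null peaks at day 15. Its best scores were 50.8 in WT and 185 in Hira-null cells, the latter 1.49 kb past the gene end. Col1a2, the alpha 2 chain (chr6:4454814-4491543, plus strand), likewise had no day 0 peak, then 1 WT peak and 2 Hira-null peaks. The WT peak (score 61.1) was centred 1.3 kb before the TSS and the Hira-null peaks (628 and 358) were centred 1.74 kb before and 1.15 kb past the gene end. In each of these type I and III genes the WT peak scored under 100 and lay near the start, and the strongest Hira-null peak lay at the end. Hira-null peaks of lower score also lay farther 5′, at 12.1 and 18.9 kb past the TSS of Col3a1 (90.1 and 87.4) and 9.13 kb past that of Col1a1 (87.8).

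Type V collagen regulates the diameter of type I fibrils. Col5a1 (chr2:27741945-27895034, plus strand) had 5 Hira-null peaks at day 15, with scores from 71.0 to 272, and none in the other lists, and 3 of the 5 were centred from 3.96 kb before to 2.57 kb past the gene end. Col5a2 had 1 Hira-null day 15 peak of score 59.6, 7.99 kb past its TSS, and Col5a3 had no peak. All 19 Hira-null peaks over types I, III and V lacked an overlapping WT peak, and 14 of 19 lay in the 3′ part of the gene, when the body is cut into 3 equal parts, or past its end. The density over these 6 genes was 38.2 peaks per Mb in Hira-null and 6.04 in WT cells at day 15. Over all 11 fibrillar genes, the planned class, it was 16.0 and 2.52. At a score of at least 100, Col3a1, Col1a1, Col1a2 and Col5a1 had 4, 1, 2 and 3 Hira-null peaks and 0 WT peaks. The remaining 5 fibrillar genes had no day 15 peak. Col24a1 had a peak in an intron in both day 0 lists, of score 95.8 in WT and 277 in Hira-null cells, and these overlapped.

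**Figure D2:**
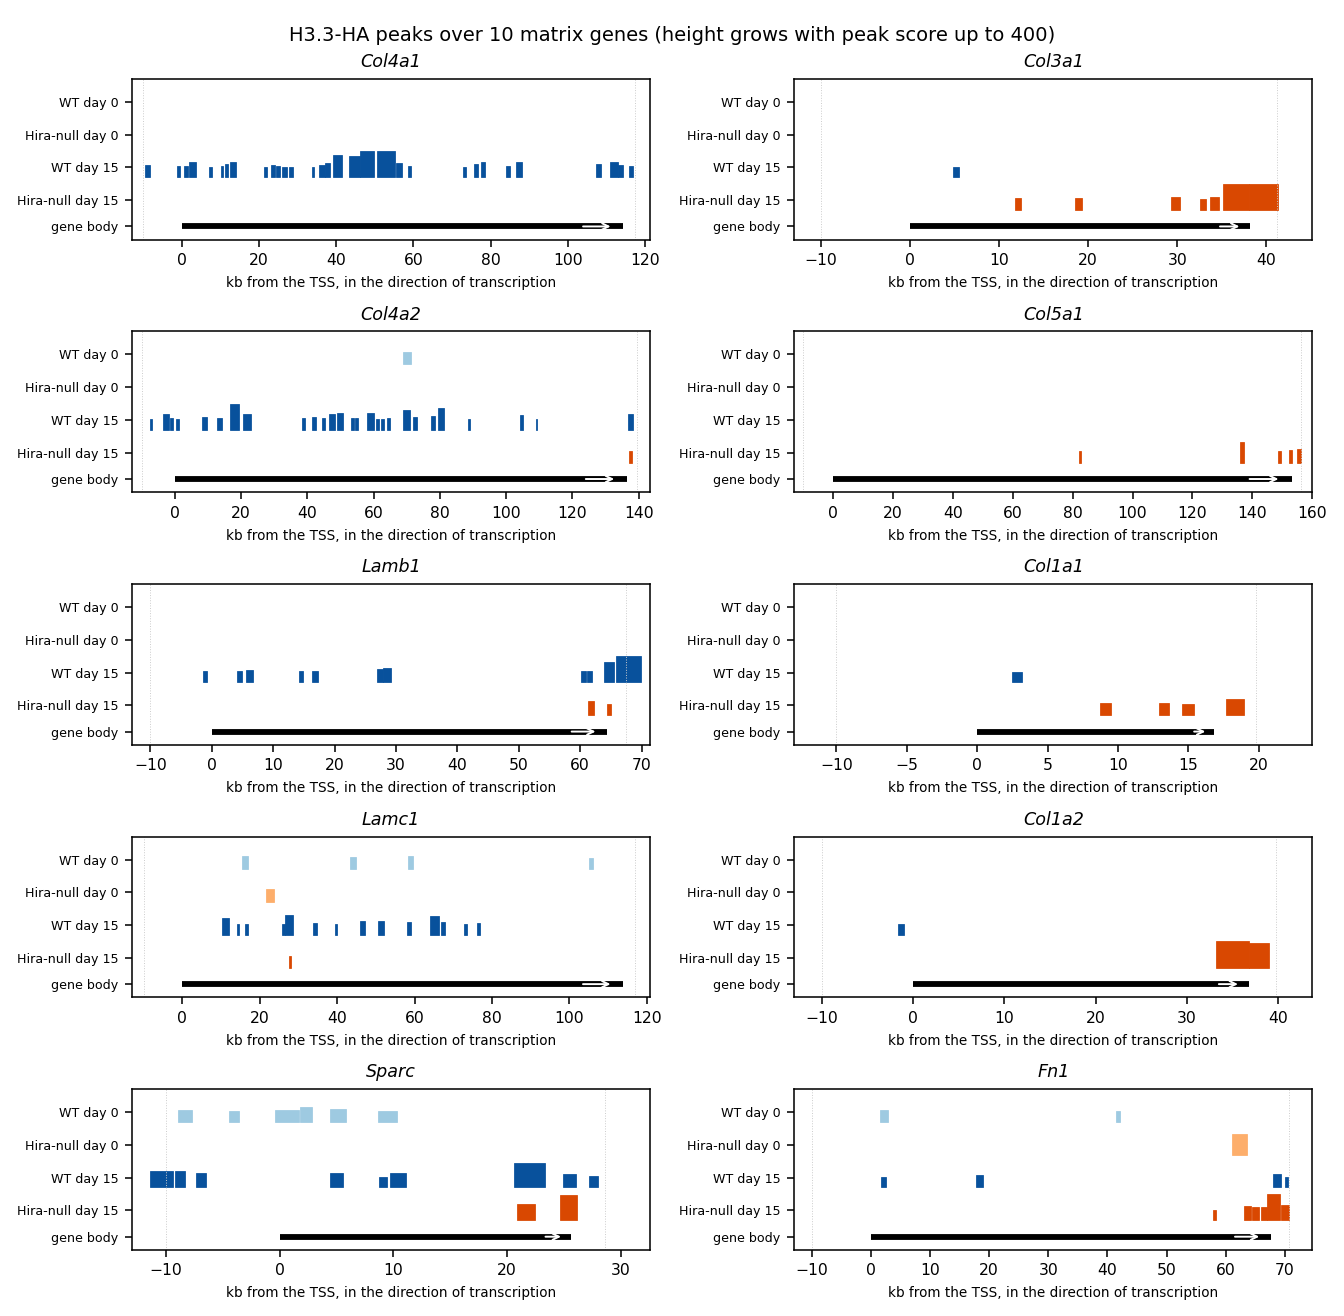
Positions of H3.3 peaks along selected matrix genes (x axis, distance from the TSS in kb, 5′ to 3′), with the black bar showing the gene body, dotted lines the limits of the window and each box a peak in 1 of the 4 lists, drawn to scale in width and with a height that grows with the score up to 400. The Hira-null day 15 peaks gather at the 3′ ends of Col3a1, Col1a1, Col1a2 and Fn1, and the WT day 15 peaks lie scattered along the bodies of Col4a1 and Lamc1.

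Type IV collagen is the network of the basement membrane. Col4a1 (chr8:11198423-11312826, minus strand) and Col4a2 (chr8:11312805-11449287, plus strand) encode its most widespread chains and share a bidirectional start. Col4a1 had 0 peaks in the WT and Hira-null day 0 lists, 31 WT peaks at day 15 and 0 Hira-null peaks at day 15. Col4a2 had 1 peak in the WT and 0 in the Hira-null list at day 0, 27 in WT and 1 in Hira-null cells at day 15. Both genes together held 53 separate WT day 15 peaks, 206 per Mb of window, and 52 of these had no Hira-null peak. The strongest, of score 628, lay in an intron of Col4a1 (chr8:11257528-11262216), and that of Col4a2 scored 416. The peaks ran through the gene bodies, and of 58 pairs of a peak and a gene, 5 were upstream, 22 in the 5′ part, 21 in the middle part, 8 in the 3′ part and 2 past the end. The Hira-null peak, of score 75.9, lay 0.941 kb past the end of Col4a2 and overlapped a WT peak of score 176. Col4a1 and Col4a2 kept 11 and 10 WT peaks when the WT list was cut to the 7332 peaks of the Hira-null list, and 15 and 12 at a score of at least 100. They lie on chromosome 8, where WT day 15 gene windows held 48.2 peaks per Mb, and the part of that density in the result was not tested.

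The other type IV genes had few peaks. Col4a4, a chain of the glomerular basement membrane, had 1 WT peak (83.8) and 2 Hira-null peaks (287 and 227) in 1 intron at day 0 and none at day 15. Col4a6 had 1 Hira-null day 15 peak in an intron, while Col4a3 and Col4a5 had none. Col4a5 and Col4a6 lie on the X chromosome, where WT day 15 gene windows held 0.0921 peaks per Mb.

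Of the laminin genes, Lamb1 and Lamc1, which encode the beta and gamma chains of the most widespread laminins, had the most peaks. Lamc1 (chr1:155066052-155179916, minus strand) had 4 WT peaks and 1 Hira-null peak at day 0, 14 WT peaks and 1 Hira-null peak at day 15. All 14 lay within the gene body, with scores up to 257, and the Hira-null peak of score 69.0 overlapped the strongest of them. Lamb1 (chr12:31950099-32014509, plus strand) had no day 0 peak, 11 WT peaks and 2 Hira-null peaks at day 15, and both Hira-null peaks (122 and 55.5) overlapped WT peaks at the gene end. The strongest WT peak in its window (637) lies in Dld, the gene of dihydrolipoamide dehydrogenase, with its midpoint 3.47 kb past the end of Lamb1. The next, of score 259, spans the end of Lamb1 itself.

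Lamb2, the beta chain of muscle and kidney laminins, had 2 WT peaks at day 0 and 3 at day 15, all upstream of the gene, and no Hira-null peak. Lamb3 had no peak, and Lamc3 had 1 WT day 0 peak. The beta and gamma chain genes thus held 33 WT peaks and 3 Hira-null peaks at day 15, all 3 of which overlapped a WT peak.

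The alpha chain genes, whose products bind cell surface receptors, differed from this. Lama1, the alpha chain of embryonic laminin, had 1 WT peak and 0 Hira-null peaks at day 0, 5 WT peaks and 1 Hira-null peak at day 15. Lama4, found in vessels and muscle, had 1 WT peak at day 0 and 2 at day 15 and no Hira-null peak. Lama2, the alpha chain of muscle, had 2 Hira-null day 15 peaks (68.1 and 121) and no other, and Lama5 had 1 Hira-null day 15 peak (59.4). Lama3, of epithelial laminin, had 1 WT peak and 4 Hira-null peaks at day 0, then 0 WT and 2 Hira-null peaks, the best of which scored 250. In sum the 5 alpha chain genes held 7 WT and 6 Hira-null peaks at day 15, and none of them overlapped a peak of the other genotype.

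**Figure D3:**
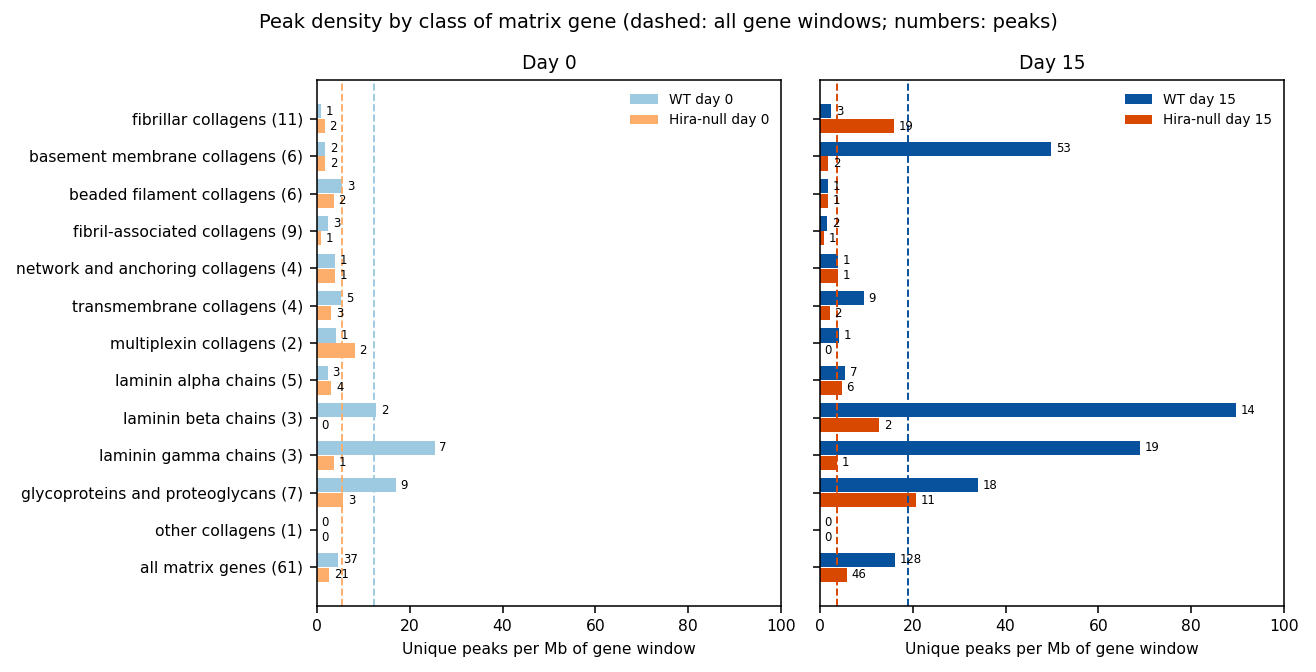
Peaks per Mb of gene window (x axis) by class of matrix gene (rows, number of genes in parentheses) in the 4 lists, with the number of peaks beside each bar, 1 library for each and no error bar. Dashed lines give the density over all gene windows. At day 15 the WT value was above the Hira-null value in basement membrane collagens (49.8 against 1.88) and below it in fibrillar collagens (2.52 against 16.0).

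Among the glycoproteins, Fn1, which encodes the cell-binding protein fibronectin (chr1:71632094-71699774, minus strand), had 2 WT peaks and 1 Hira-null peak at day 0, 4 WT and 6 Hira-null peaks at day 15. The 6 Hira-null peaks lay from 9.55 kb before to 2.34 kb past the gene end. Of the 4 WT peaks, 2 lay past the end, where they overlapped Hira-null peaks, and 2 in the 5′ part of the gene. The strongest Hira-null peak at the end scored 409 and the WT peak overlapping it scored 128. The Hira-null day 0 peak (275) was likewise near the 3′ end, 5.32 kb before it, and both WT day 0 peaks (68.2 and 84.3) were farther 5′.

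Sparc, a collagen-binding protein abundant in basement membranes (chr11:55208002-55233582, minus strand), had 6 WT peaks and 0 Hira-null peaks at day 0, 9 WT and 2 Hira-null peaks at day 15. Both Hira-null peaks (378 and 178) lay in the 3′ part of the gene and overlapped WT peaks (115 and 369). The gene lies on chromosome 11, where WT day 15 peaks were densest. Of its 9 WT peaks, 6 remained when the WT list was cut to the length of the Hira-null list (7332 peaks).

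The remaining 5 had few peaks. Fbn1, the main protein of microfibrils, had 0 peaks in either day 0 list, then 3 WT peaks and 1 Hira-null peak with scores from 52.6 to 69.6. Postn, periostin of fibroblasts and valves, had 1 WT peak 2.42 kb before its TSS (106) and 1 Hira-null peak 1.24 kb before its end (97.1) at day 15. Lum, a small proteoglycan of collagen fibrils, had 1 peak upstream of its TSS in 3 lists, with scores of 180 in WT day 0, 341 in Hira-null day 0 and 98.7 in Hira-null day 15 cells, and the Hira-null peaks of both days overlapped. Dcn, its relative decorin, had 1 WT day 15 peak (115) 4.04 kb before the TSS. Tnc, tenascin of remodelling tissue, had 1 Hira-null day 0 peak of score 56.1.

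Of the other collagens, Col23a1 had 5 WT peaks and 2 Hira-null peaks at day 0, 8 WT and 2 Hira-null peaks at day 15. Its strongest day 0 peak was Hira-null (541, in an intron, 150 kb past the TSS) and overlapped a WT peak of score 71.5. Its window also held peaks within Clk4 before the TSS and Agxt2l2 past the end, including the strongest WT day 15 peak (391). Col22a1 had 1 Hira-null day 15 peak (182) 0.380 kb past its end. Col19a1 had overlapping WT (78.3) and Hira-null (233) day 0 peaks. Col18a1, the source of endostatin, had 1 WT peak and 2 Hira-null peaks at day 0, 1 WT peak and 0 Hira-null peaks at day 15, with scores from 60.0 to 71.1. Among the type VI genes, Col6a5 had 2 WT day 0 peaks (best 126), and Col6a6 had 1 WT (101) and 1 Hira-null (114) day 0 peak that lay apart. The day 15 WT peaks in the windows of Col16a1, Col17a1, Col20a1 and Col7a1 lay in the neighbouring genes Pef1, Slk, Arfgap1 and Uqcrc1.

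Gene by gene at day 15, 14 of the 61 genes (23.0%) had peaks in both genotypes, against 11.1% of all genes. A further 9 (14.8%, against 28.3%) had WT peaks only, and 8 (13.1%, against 4.10%) had Hira-null peaks only. Counted by number of peaks, 12 genes (19.7%, against 5.41%) had more Hira-null than WT peaks, and 16 (26.2%, against 34.8%) had more WT peaks. The 12 genes were Col1a1, Col1a2, Col3a1, Col5a1, Col5a2, Col22a1, Col4a6, Fn1, Lama2, Lama3, Lama5 and Lum. The 16 included Col4a1, Col4a2, Lamb1, Lamb2, Lamc1, Lama1, Lama4 and Sparc. At day 0, 10 genes (16.4%, against 13.5%) had peaks in both genotypes, 11 (against 21.9%) in WT only and 5 (8.20%, against 6.80%) in Hira-null only. By number of peaks, 8 genes (13.1%, against 9.54%) had more Hira-null and 14 (23.0%, against 27.5%) more WT peaks at day 0. The day 0 shares were thus closer to those of all genes than the day 15 shares. None of these shares was matched for gene length, and matrix genes are long. Among genes of 50 to 200 kb, 28.6% of matrix genes had a Hira-null day 15 peak (13.2 to 48.7), against 21.1%. Col1a1, Col1a2 and Col3a1 are shorter and lie outside that range.

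Peak by peak, 117 of 128 WT day 15 peaks over matrix genes (91.4%, 85.1 to 95.6) had no overlapping Hira-null peak, against 92.7% in all gene windows, and 35 of 46 Hira-null peaks (76.1%, 61.2 to 87.4) had no overlapping WT peak, against 60.8%. At day 0 the shares were 32 of 37 (86.5%, 71.2 to 95.5, against 83.3%) and 16 of 21 (76.2%, 52.8 to 91.8, against 64.5%). The share of WT peaks without a Hira-null peak was thus close to that of all gene windows. The share of Hira-null peaks that lay apart from WT peaks at day 15 was higher, with a lower bound next to the value of all gene windows. The day 15 lists held 27272 WT and 7332 Hira-null peaks, and the part of list length in these shares was not tested.

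Between the days, 12 genes (19.7%, against 15.6%) had WT peaks at day 15 only, 10 (16.4%, against 11.5%) at day 0 only and 11 (against 23.8%) at both. In Hira-null cells 16 genes (26.2%, against 8.31%) had peaks at day 15 only, 9 (14.8%, against 13.4%) at day 0 only and 6 (9.84%, against 6.89%) at both. These shares were not matched for gene length either. Few peaks were in the same place at both days. Of the 46 Hira-null day 15 peaks, 3 overlapped a Hira-null day 0 peak (6.52%, 1.37 to 17.9, against 21.3% in all gene windows), and of the 128 WT day 15 peaks, 17 overlapped a WT day 0 peak (13.3%, 7.93 to 20.4, against 22.5%).

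The position of peaks along the genes also differed. In Hira-null day 15 cells 24 of 46 pairs of a peak and a matrix gene (52.2%, 36.9 to 67.1) lay within 5 kb before or 3 kb past the gene end, against 36.4% over all genes. In WT day 15 cells this share was 11.3% (6.45 to 17.9), against 20.5%. It was 8.11% in WT and 4.76% in Hira-null cells at day 0, against 18.5% and 14.4%. Near the TSS, within 5 kb, the order was the opposite, with 1 of 46 Hira-null pairs (2.17%, 0.0550 to 11.5, against 18.4%) and 24 of 133 WT pairs (11.9 to 25.6%, against 25.7%) at day 15. The 1 Hira-null pair near a TSS was that of Lum. The genes with a Hira-null day 15 peak at their end numbered 11 of 61 (against 6.22% of all genes), namely Col1a1, Col1a2, Col3a1, Col5a1, Col22a1, Col4a2, Fn1, Lama5, Lamb1, Postn and Sparc, and 8 genes (13.1%, against 16.9%) had a WT day 15 peak there. Within 5 kb of the TSS, 14 genes (23.0%, 13.2 to 35.5, against 22.2%) had a WT peak and 1 gene (1.64%, against 3.82%) had a Hira-null peak at day 15. At day 0 a peak at the end was found in 3 genes (4.92%, against 11.1%) in WT and 1 gene (1.64%, against 4.22%) in Hira-null cells, and a peak near the TSS in 7 genes (11.5%, against 16.2%) and 1 gene (1.64%, against 4.64%). Without Col4a1 and Col4a2, 28 of 45 Hira-null and 14 of 75 WT pairs at day 15 lay in the 3′ part of the gene or past its end. Long genes place a smaller part of their length near either end, and the peaks of 1 gene are not independent of each other.

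**Figure D4:**
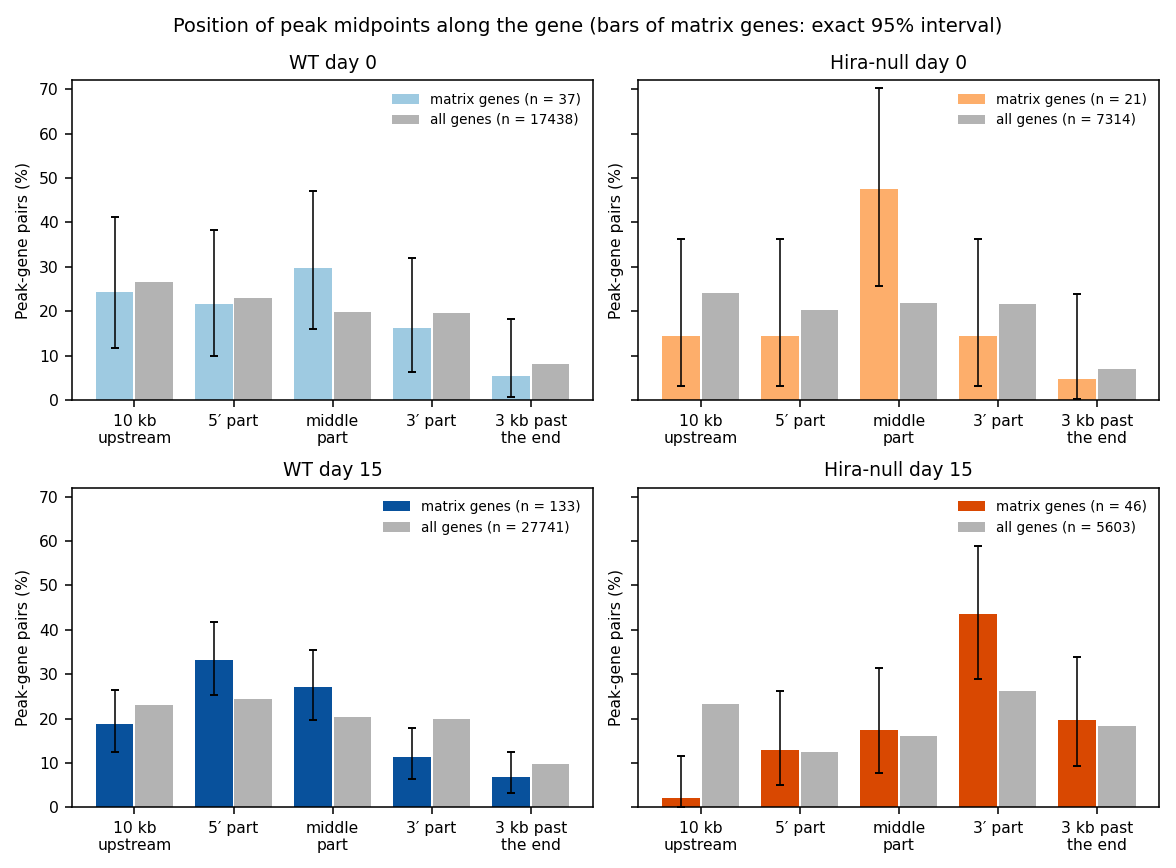
Share of pairs of a peak and a gene (y axis, percent) in each part of the gene window (x axis, with the gene body cut into 3 equal parts), for the matrix genes (coloured bars, with exact 95% intervals) and for all protein-coding genes (grey bars), in the 4 lists. The Hira-null day 15 pairs of the matrix genes stand to the 3′ side, with 63.0% in the 3′ part of the gene or past its end, against 44.4% over all genes, and the WT day 15 pairs do not (24 of 133, against 29.8%).

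The sequence under the peaks was compared with that of all peaks in gene windows of the same list. The central 300 bases had a median GC content of 50.3% in WT and 46.0% in Hira-null cells at day 0 over matrix genes, and of 44.3% and 41.8% at day 15, against 45.3%, 46.0%, 42.0% and 42.3% over all gene-window peaks. AGATAA, the GATA motif, was found on either strand in 26.6% of WT and 23.9% of Hira-null day 15 peaks over matrix genes, against 24.2% and 21.8% of gene-window peaks. GGAATG, the TEAD motif, was in 18.8% and 15.2%, against 16.6% and 17.3%. TGANTCA, the AP-1 motif, was in 5.47% (2.23 to 10.9) of WT and 6.52% of Hira-null day 15 peaks, against 11.8% and 9.87%. GGGCGG, a GC box, was in 3.91% of WT and in 0 of 46 Hira-null peaks (upper bound 7.71%), against 3.29% and 2.84%. A match is a description of the letters and not a binding site.

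Other genes of matrix biology were read from lists that did not overlap the 61 genes. Of 15 genes that fold, process or crosslink collagen, WT peaks were found at 6 at day 0 and 7 at day 15, and Hira-null peaks at 1 and 7. Serpinh1, the collagen chaperone HSP47, had 1 WT peak and 0 Hira-null peaks at day 0 and 4 of each at day 15. P4ha1, a prolyl hydroxylase, had 1, 0, 12 and 3 peaks in WT day 0, Hira-null day 0, WT day 15 and Hira-null day 15 cells, and Plod2, a lysyl hydroxylase, had 0, 0, 11 and 1. Of 20 matrix receptors, 13 had WT and 4 had Hira-null peaks at day 0, and 11 and 2 at day 15, with 63 WT and 4 Hira-null peaks at that day. Itgb1, the integrin chain common to most laminin and collagen receptors and also on chromosome 8, had 21 of these WT peaks and no Hira-null peak. All 4 partners of laminin in the basement membrane (Nid1, Nid2, Hspg2 and Agrn) had WT peaks at day 0, and 3 had WT and 2 had Hira-null peaks at day 15, with 7 peaks in each genotype. Itga3, Itgb3 and Itgb4, with 6, 3 and 5 WT peaks at day 15, lie on chromosome 11. By peaks at day 15 the enzymes (38 WT and 13 Hira-null) and the receptors had more in WT cells, and the laminin partners had as many in either genotype. All gene windows also held more WT peaks, 22356 against 4336 in Hira-null cells. Of all genes, 39.4% had a WT and 15.2% a Hira-null peak at that day. Thbs1, the adhesive protein thrombospondin, had 5 Hira-null day 15 peaks and none in the other lists.

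Markers of cells that make matrix were counted in the same lists. Of 5 fibroblast genes, 1 had a WT and 2 had Hira-null peaks at day 15. Vim, which these cells share with other mesenchyme, had 2 WT peaks (best score 305) and 4 Hira-null peaks (937), and Pdgfra, Pdgfrb and Thy1 had none in any list. Of 4 smooth muscle genes, 2 had WT peaks (2 in all) and 3 had Hira-null peaks (8 in all) at day 15, namely Acta2 with 1 WT and 4 Hira-null peaks, Tagln with 0 and 3, Cnn1 with 0 and 1, and Myh11, which went the other way, with 1 and 0. Of 5 endoderm genes, 4 had WT peaks (8 in all) and 1 had Hira-null peaks (2 in all), and no endoderm gene had a day 0 peak. Of 4 endothelial genes, Pecam1 and Tek had WT peaks (11 in all) and Pecam1 and Kdr had Hira-null peaks (3 in all) at day 15. By summed day 15 peaks the smooth muscle list and the fibroblast list (2 WT and 5 Hira-null) were higher in Hira-null cells, as the fibril-forming collagens were. The endoderm and endothelial lists were higher in WT cells, and 9 of the 11 endothelial WT peaks lay at Pecam1 on chromosome 11. The cardiomyocyte list (11 and 6), the pluripotency list (2 and 1) and 4 neural genes (4 and 0) were also higher in WT cells. So were all gene windows, with 22356 WT and 4336 Hira-null peaks. The part of these cell types and of the list lengths in the result was not tested. In a culture of mixed cells, fewer cells of a type and less H3.3 per cell cannot be told apart.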

How the data were processed

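H3.3-HA ChIP-seq peaks were read from 1 deposited list for each of 4 conditions (WT and Hira-null, day 0 and day 15), with 1 ChIP library each. The input libraries and the reads were not analysed here, and read depth per sample is not given in the sources used here. The authors aligned reads to mm9 with Bowtie and called peaks with MACS 1.4.2 at its default settings, and the deposited score of each peak is −10 log10 of the p-value that MACS gave it. Peaks were assigned to genes of GENCODE M1 with windows from 10 kb before the TSS to 3 kb past the gene end, and 2 peaks overlapped when they shared 1 bp. Overlaps were checked with bedtools 2.31.1, and the counting was tested on simulated peaks. Python 3.11.15, numpy 2.4.6, pandas 2.3.3 and scipy 1.17.1 were used. Shares have exact Clopper-Pearson 95% intervals, and intervals of density ratios are those of the matrix genes' share of all gene-window peaks, scaled by window length. Alternatives were a score of at least 100, lists cut to 7332 peaks, gene bodies alone, a window ending 200 bp past the gene, 50% overlap, widening by 1 kb, and leaving out chromosomes 8 and 11 or, chosen after seeing the data, Col4a1 and Col4a2. Genes were named by rule: the 7 glycoproteins and proteoglycans, the 10 with the most peaks in each list, those with peaks in 1 genotype at a day and a best score of at least 100, and those with peaks in all lists. Other names complete a class. The sequences were the strongest peaks by fixed kinds, leaving out chromosome 18. A gene and a sequence that these rules name are not reported here. The Col4a1 and Sparc sequences and the range of 50 to 200 kb were chosen after values were seen. The groups of collagen types I, III and V and of laminin beta with gamma chains were not among the planned classes. The genes and lists were chosen with earlier results of these data known.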

Additional observations from a re-analysis of the deposited data

Results flagged for a closer look

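The difference between genotypes pointed opposite ways at the 2 days in 4 results, and none of these differences was tested, since each condition has 1 library. For Fn1 the Hira-null count less the WT count was -1 at day 0 (1 and 2 peaks) and 2 at day 15 (6 and 4), a shift of 3. For the 5 laminin alpha chain genes it was 1 at day 0 (4 and 3) and -1 at day 15 (6 and 7), a shift of -2. The same shift of -2 was found for Col18a1 (2 and 1 peaks, then 0 and 1), which alone carried the value of its class, the multiplexin collagens (-2). The shifts of the alpha chains and of Col18a1 rest on 1 to 7 peaks.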

How the results depend on the processing

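No paired analysis was possible because each condition has 1 library. Precision is limited by the small numbers of peaks and by the absence of replicates. The window ending 200 bp past the gene changed none of the 24 main results by more than its interval or 1.5 times, and widening by 1 kb none of 4. At a score of at least 100, genes with a peak numbered 6 (WT day 0), 9 (Hira-null day 0), 12 (WT day 15) and 14 (Hira-null day 15). At that score, genes with WT peaks only at day 0 numbered 3, with both genotypes 3 at day 0 and 5 at day 15, with WT peaks at day 0 only 3, with WT peaks at both days 3 and with Hira-null peaks at both days 3, and 88.0% of Hira-null day 15 peaks had no WT peak. In lists of equal length (all cut to that of the Hira-null day 15 list, which stays whole), genes with a peak numbered 5, 7 and 8 in WT day 0, Hira-null day 0 and WT day 15, and the WT day 0 density ratio was 0.223. There, WT only and both genotypes held 4 genes and 1 gene at day 0, and WT only, Hira-null only and both held 2, 16 and 6 genes at day 15. WT peaks at day 15 only, at day 0 only and at both days were then found in 5, 2 and 3 genes, and Hira-null peaks at day 0 only in 3. With gene bodies alone, 15 genes had a WT day 15 peak, 2 had Hira-null peaks only at day 0, 5 had WT peaks only at day 15, and 6 had WT peaks at day 15 only of the days. The WT day 15 density ratio was 0.568 without chromosomes 8 and 11 and 0.522 without Col4a1 and Col4a2. With 50% overlap, 95.2% of Hira-null day 0 peaks had no WT peak. The Hira-null day 15 density ratio was 1.4 to 1.86 over the alternatives run, and its interval included 1 without chromosomes 8 and 11 (0.988 to 1.93). For the counts of genes under the alternatives the share of all genes was not computed, so they have no background value beside them. Apart from the construction of the alternatives, the cause of the changes was not tested.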
